A study of Rattus norvegicus with 18 samples.

Results

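The miR-1 family is the group of microRNAs (miRNAs) that striated muscle produces in the largest amounts. Within the count table, 4 entries were taken as its members, out of 909 entries in all (763 known miRNAs and 146 predicted candidates). The members were taken by name and not by their values: rno-miR-1-3p, rno-miR-1-5p, rno-miR-1b and rno-miR-3571. The last is not a miR-1 by its own name or sequence and was included because it overlaps the miR-1 gene on the opposite strand. All 4 were in the table, and 3 of them were the miRNAs that dominated every library. Small RNA came from the gastrocnemius, a calf muscle, of male Brown Norway rats, with 1 library per rat and 6 libraries in each group. Young AL rats (replicates 1 to 6) were 6 months old and fed ad libitum, old AL rats (replicates 7 to 12) were 28 months old and fed ad libitum, and old CR rats (replicates 13 to 18) were 28 months old and on caloric restriction (CR) at 55% of the control intake, begun at 2 months of age. No group of young CR rats was compared here, so the effect of CR was measured in old muscle alone. The comparisons asked whether the family differed with age and whether it differed with CR. Old AL was part of 2 of the 3 comparisons, young AL was part of 2 and old CR was part of 2, so the comparisons were not independent of each other.

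A miRNA guides an Argonaute protein to messenger RNAs, which it recognises chiefly through bases 2 to 8 of its mature strand, the seed, and whose translation and stability it lowers. The genes of miR-1 are switched on with muscle differentiation, by MyoD, Mef2 and serum response factor, and are transcribed together with those of miR-133a, while miR-206 is a skeletal muscle relative of miR-1 that is transcribed with miR-133b. miR-1 is known to favour differentiation of muscle precursors over their proliferation. A hairpin precursor can give a 5p and a 3p strand, of which usually a single one is kept, so that the other is rare.

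The mature sequences show which members can be told apart and by which bases, with the seed in capitals and the remaining bases in lower case, 5′ to 3′ (RefSeq, GRCr8). RefSeq held all 4 members.

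rno-miR-1-3p: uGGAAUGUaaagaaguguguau

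rno-miR-1b: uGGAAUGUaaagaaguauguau

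rno-miR-206-3p: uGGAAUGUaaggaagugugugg

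rno-miR-3571: uACACACUucuuuacauuccaua

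rno-miR-1-5p: gCACAUACuucuuuauguaccc

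The first 3 shared the seed GGAAUGU, and they were the only 3 of the 693 mature miRNAs in that RefSeq table to have it. Counted from 1 at the 5′ end, rno-miR-1b differed from rno-miR-1-3p by a single substitution, G17A, outside the seed. rno-miR-206-3p differed from rno-miR-1-3p by 3 substitutions, A11G, A21G and U22G. rno-miR-3571 has a different seed, but over 21 bases its reverse complement matched rno-miR-1-3p with 0 mismatches and rno-miR-1b with 1 mismatch. In GRCr8, rno-miR-1-3p lies at chr18:2160339-2160360 on the minus strand and rno-miR-3571 at chr18:2160340-2160362 on the plus strand. Their genes, Mir1 and Mir3571, overlap each other and both lie within the bounds of the protein-coding gene Mib1. rno-miR-1b lies at chr3:187864736-187864757 on the plus strand, in a gene, Mir1b, that overlaps no other annotated gene. The library kit keeps strand, but the sequencing was paired-end, and whether the counting used strand, which read of a pair was counted and how reads that match several entries were treated is not given in the sources used here. Reads from rno-miR-1-3p and from its antisense partner rno-miR-3571 therefore cannot be told apart with certainty, and the same holds for rno-miR-1-3p and rno-miR-1b. Each count below is that of an entry, not of a proven molecule.

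The libraries held 34940346 to 83110905 counts. rno-miR-3571 ranked 1, rno-miR-1b ranked 2 and rno-miR-1-3p ranked 4 in all 18 libraries, and rank 3 was taken by a predicted candidate of the table, which had 99.5% to 99.7% of the counts of rno-miR-1b in all 18 libraries and so added the same profile a second time. It is called the matching candidate below. The 4 members took 44.7% to 61.6% of a library, and with the matching candidate 60.7% to 86.8%. Both ends of both ranges were old AL libraries, replicate 7 being the lowest and replicate 11 the highest. In the study's mapping summary, if its sample numbers are these replicate numbers, the same libraries have the lowest and the highest share of mapped reads, and the part of library quality in their values was not tested. With rno-miR-3571 and the matching candidate taken out of numerator and total, rno-miR-1-3p and rno-miR-1b together still made up 37.7% to 71.4% of the remaining counts.

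Summed over the 18 libraries, rno-miR-1-3p had 102414968 counts, against 18 counts for rno-miR-1-5p, the opposite strand of the same hairpin. rno-miR-1-5p had 0, 1, 1, 0, 0 and 2 counts in young AL replicates 1 to 6, 1, 1, 2, 4, 0 and 0 in old AL replicates 7 to 12, and 1, 3, 1, 0, 0 and 1 in old CR replicates 13 to 18. It was at 0 in 7 of the 18 libraries, where a count of 0 allows up to 3 counts, and the groups overlapped completely. Its ranks ran from 546 to 668 among the 909 entries, and no difference between groups was detectable at this depth.

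The counts of rno-miR-3571 followed those of the other members closely. In every library they exceeded those of rno-miR-1-3p, and this surplus was 79.3% to 84.2% of the count of rno-miR-1b (82.2% ± 1.29, SD, n = 18). The surplus was 81.3% ± 1.43 of rno-miR-1b for young AL, 82.2% ± 0.760 for old AL and 83.1% ± 1.102 for old CR (SD, n = 6 each). Against the sum of rno-miR-1-3p and rno-miR-1b, rno-miR-3571 had 85.3% to 89.4%. The 3 entries share sequence and possibly reads, so these percentages describe the table and are not a measure of co-expression.

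**Figure D1:**
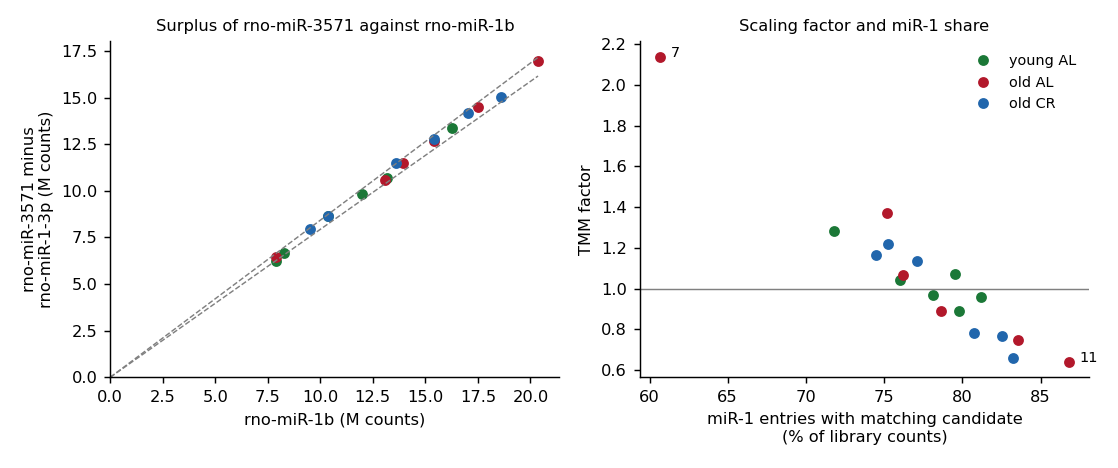
Left, counts of rno-miR-3571 minus counts of rno-miR-1-3p (y axis, M counts) against counts of rno-miR-1b (x axis, M counts), 1 point per library, with dashed lines at 79.3% and 84.2%, the lowest and highest percentage found. All 18 points lie on or between the lines. Right, the TMM factor of each library (no unit, grey line at 1) against the share of its counts on the miR-1 entries and the matching candidate (%). Old AL replicate 7 has the lowest share and the highest factor, 2.14, and old AL replicate 11 the highest share and the lowest factor, 0.639.

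Because the family and the matching candidate filled most of each library, the level of a member depended on how libraries were scaled, and 3 readings are given. They are the share of all counts in the library, the level after TMM scaling (CPM), and the ratio of 2 entries in the same library, which needs no scaling. CPM is counts per M of the library total multiplied by its TMM factor, so it is not a share of the library. TMM derives a factor for each library from the bulk of the entries, and here the factors ran from 2.14 in the library with the lowest family share to 0.639 in the one with the highest. Within old AL, the highest share of rno-miR-1b was 1.57-fold the lowest, but the highest CPM was 5.27-fold the lowest. For rno-miR-3571 in old AL these figures were 1.37-fold and 4.58-fold, and for rno-miR-1-3p 1.21-fold and 3.35-fold. In young AL all 3 members spread less on the CPM scale, at 1.60-fold to 1.69-fold.

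rno-miR-1-3p, which carries the miR-1 sequence of the Mir1 gene, took the smallest share in old AL. Its share of library counts was 8.82%, 9.27%, 9.18%, 11.4%, 10.6% and 8.07% in young AL replicates 1 to 6. The shares were 7.68%, 7.53%, 8.39%, 8.52%, 7.69% and 7.06% in old AL replicates 7 to 12, and 9.96%, 10.3%, 8.62%, 11.4%, 9.34% and 9.55% in old CR replicates 13 to 18. Every old CR library was above every old AL library, by a narrow margin between old CR replicate 15 and old AL replicate 10. With counts of known miRNAs alone as the denominator the groups overlapped (difference 2.56 percentage points, exact permutation p = 0.00433, adjusted p = 0.523). Of the young AL libraries, 5 were above all old AL libraries, and replicate 6 lay among them. The means were 9.54% ± 1.205 for young AL, 7.81% ± 0.548 for old AL and 9.86% ± 0.950 for old CR (SD, n = 6 each).

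The share of rno-miR-1-3p was 2.05 percentage points higher in old CR than in old AL, with a two-sided exact permutation p of 0.00216, the smallest that 6 against 6 libraries can give, and an adjusted p of 0.697 over 736 entries. In old AL it was 1.73 percentage points lower than in young AL (exact permutation p = 0.00866, adjusted p = 0.248 over 732 entries). Old CR and young AL differed by 0.316 percentage points (exact permutation p = 0.619, adjusted p = 0.943 over 730 entries). None of these passed the adjusted threshold of 0.05, nor did any other entry: 0% of the entries were called by this test in each comparison, though 80, 142 and 35 entries had an unadjusted p under 0.05 in old AL against young AL, old CR against young AL and old CR against old AL. With counts of known miRNAs alone as the denominator, 31 of 603 entries were called in old CR against young AL, no member among them. Over all entries, calls resting on the smallest p alone would have needed at least 32 entries at it. The shares of the groups did not overlap for 0.956% of the entries in old AL against young AL, for 3.84% in old CR against young AL and for 0.272% in old CR against old AL, where rno-miR-1-3p was 1 of 2 such entries. Leaving out each library in turn kept the difference between old CR and old AL at 1.74 to 2.30 percentage points, and that between old AL and young AL at -2.03 to -1.37.

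The shares of rno-miR-1b and rno-miR-3571 did not separate the groups. rno-miR-1b took 19.5% to 22.5% (median 20.9%) in young AL, 16.1% to 25.3% (median 21.7%) in old AL and 19.8% to 22.6% (median 20.6%) in old CR. The old AL libraries held both the lowest (replicate 7) and the highest (replicate 11) share of all 18, so that the old AL range enclosed both other groups. rno-miR-3571 took 24.5% to 27.7% (median 26.7%) in young AL, 20.9% to 28.6% (median 26.1%) in old AL and 25.5% to 28.5% (median 27.4%) in old CR, again with replicates 7 and 11 at the ends. Their exact permutation p lay between 0.229 and 0.935 over the 3 comparisons.

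**Figure D2:**
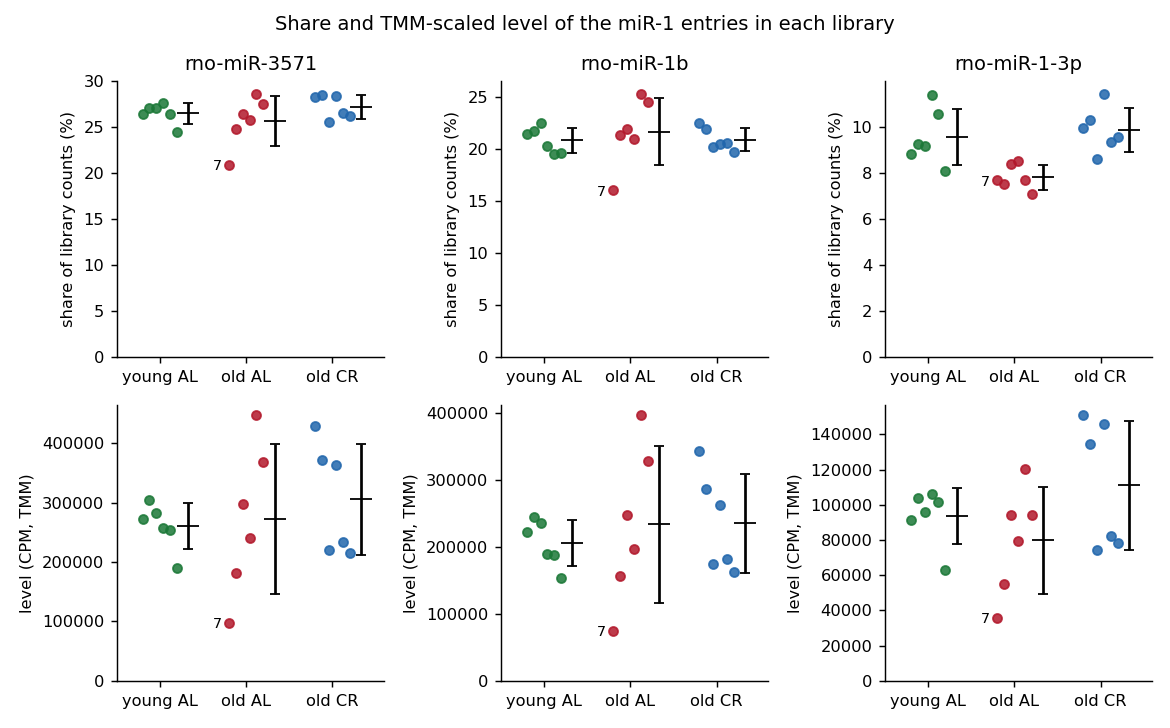
Each point is 1 library, with the mean and SD of the 6 libraries of a group in black and old AL replicate 7 marked. The upper panels give the share of library counts (%), the lower ones the level in CPM after TMM scaling. The old AL points of rno-miR-1-3p lie from 7.06% to 8.52%, below all old CR points (8.62% to 11.4%), while on the CPM scale the groups overlap for all 3 members.

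On the CPM scale the spread within groups was larger than any difference between them. rno-miR-1-3p reached 62805 to 105900 CPM in young AL, with a median of 98708, while old AL ran from 35911 to 120330 with a median of 87046 and old CR from 74066 to 151209 with a median of 108274. Its mean was lowest in old AL, at 79968 ± 30382 CPM, followed by young AL at 93565 ± 16026 and old CR at 110997 ± 36474 (SD, n = 6 each), and neither pair of neighbours in this order differed beyond its spread. rno-miR-1b reached 153169 to 244400 CPM in young AL, with a median of 205477, while old AL ran from 75156 to 396081 with a median of 221895 and old CR from 161943 to 342662 with a median of 221756. rno-miR-3571 was the highest member, with 190503 to 304632 CPM in young AL, with a median of 265292, while old AL ran from 97683 to 447628 with a median of 269544 and old CR from 214647 to 428877 with a median of 298645. The lowest value of each member was that of old AL replicate 7. In bulk muscle, fewer fibres and less of a miRNA in each fibre cannot be told apart.

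In edgeR's quasi-likelihood test, with Benjamini-Hochberg adjustment over all entries, no member was called in any comparison, a call needing both an adjusted p that does not exceed 0.05 and a change of 1.5-fold or more. Of all entries tested, 3.28% were called in old AL against young AL, 9.32% in old CR against young AL and 0.272% in old CR against old AL. In old CR against old AL the log2 fold change in level of rno-miR-1-3p was 0.48 (SE 0.302, 95% interval -0.18 to 1.14, edgeR adjusted p = 0.530). In old AL against young AL it was -0.21 (SE 0.271, 95% interval -0.80 to 0.38, edgeR adjusted p = 0.735), and in old CR against young AL 0.24 (SE 0.218, 95% interval -0.23 to 0.72, edgeR adjusted p = 0.564). With 1 library left out, the value in old AL against young AL ran from -0.37 (without replicate 11) to -0.0844 (without replicate 7, and -0.11 without replicate 8), and that in old CR against young AL from 0.14 (without replicate 13) to 0.34 (without replicate 15). The 3 intervals hold 0, and also changes above 1.5-fold in at least 1 direction, so the test bounds the members' change only loosely. The log2 fold changes of rno-miR-1b were 0.20, 0.19 and 0.01 (SE 0.336, 0.203 and 0.354) and those of rno-miR-3571 were 0.08, 0.23 and 0.17 (SE 0.314, 0.199 and 0.335) in old AL against young AL, old CR against young AL and old CR against old AL, in that order, with edgeR adjusted p between 0.557 and 0.998.

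With library totals in place of TMM, the same test gave narrower intervals for all 3 members. In old AL against young AL the log2 fold change of rno-miR-1-3p was then -0.29 (95% interval -0.53 to -0.05, edgeR adjusted p = 0.260). In old CR against old AL it was 0.34 (95% interval 0.12 to 0.55, edgeR adjusted p = 0.551). These intervals left out 0 but did not pass the adjustment, and the values were below 1.5-fold. This scaling also moved the median log2 fold change of all entries, to 0.23 in old AL against young AL and -0.27 in old CR against old AL, from 0.06 and 0.01 under TMM. rno-miR-1b and rno-miR-3571 stayed between -0.05 and 0.09 in the 3 comparisons under library totals.

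**Figure D3:**
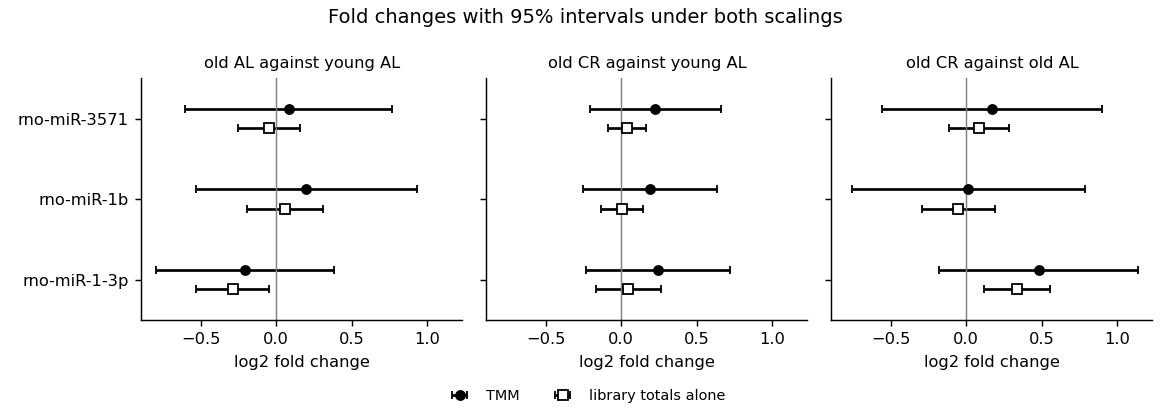
Log2 fold change in level (x axis) of 3 members in each comparison, with 95% intervals from edgeR, after TMM scaling (filled circles) and with library totals alone (open squares). Every TMM interval crosses 0, and the open squares of rno-miR-1-3p at -0.29 (old AL against young AL) and 0.34 (old CR against old AL) have intervals that do not.

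Within a library, the balance of rno-miR-1b and rno-miR-1-3p, which differ by a single base, set old AL apart from the other groups in all libraries but 1. There were 2.43, 2.35, 2.45, 1.79, 1.85 and 2.44 counts of rno-miR-1b for each count of rno-miR-1-3p in young AL replicates 1 to 6. In old AL replicates 7 to 12 the ratio was 2.09, 2.85, 2.62, 2.47, 3.29 and 3.48, and in old CR replicates 13 to 18 it was 2.27, 2.13, 2.35, 1.80, 2.21 and 2.07. All old AL libraries but replicate 7 were above every young AL and every old CR library, and replicate 7 lay inside both of those groups. The margin to young AL was narrow, between old AL replicate 10 (2.47) and young AL replicate 3 (2.45). Of the sum of both entries, rno-miR-1-3p made up 29.0% to 35.9% in the young AL libraries, 22.3% to 32.3% in those of old AL and 29.9% to 35.8% in those of old CR.

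The mean log2 ratio of rno-miR-1b to rno-miR-1-3p was 0.33 higher in old AL than in young AL (SE 0.141, exact permutation p = 0.0498, adjusted p = 0.149 over 12 ratio tests). It was 0.37 lower in old CR than in old AL, a difference of -0.37 (SE 0.124, exact permutation p = 0.0152, adjusted p = 0.104). Old CR and young AL differed by -0.05 (SE 0.104, exact permutation p = 0.680, adjusted p = 0.883). As a difference in medians, old AL against young AL gave 0.19 (exact permutation p = 0.0887, adjusted p = 0.266). With all libraries, then, no difference passed the adjusted threshold. A single library decided this for the means: without old AL replicate 7 the differences were 0.41 and -0.45, both with an exact permutation adjusted p of 0.00866. The groups then did not overlap in either comparison, with only a narrow margin to young AL. The choice to single out replicate 7 was made with its values known. The endothelial list (2 of 4 miRNAs in the table, both counted in every library) ran in part opposite to this ratio. It took 0.857% and 0.844% in young AL replicates 4 and 5 and 1.09% in old AL replicate 7, the libraries with the lowest ratios of those groups, against 0.440% to 0.613% in the other young AL libraries. Old AL replicate 8, with a ratio of 2.85, was also high at 0.992%, and old CR replicate 16, with the lowest ratio of its group, was at 0.526%. Its range was 0.440% to 0.857% for young AL, 0.319% to 1.09% for old AL and 0.305% to 0.834% for old CR. The fibroblast and smooth muscle list (8 of 8 in the table, 7 of them counted in every library) ran from 0.654% to 1.24%, from 0.549% to 1.68% and from 0.492% to 1.01% in the same order. It too was high in some libraries with a low ratio, at 1.24% and 1.05% in young AL replicates 4 and 5 and 1.68% in old AL replicate 7. The other young AL libraries had 0.654% to 0.851%, but old AL replicate 8, with a ratio of 2.85, also had 1.54%. All these list values are shares of the whole library. Old AL replicate 7 had the lowest share on the miR-1 entries and the matching candidate (60.7%), which left more of its counts for both lists. The lists were not compared over the remaining counts, so its high shares do not set it apart in them. The part of these cells in the ratio was not tested.

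The ratio of rno-miR-3571 to rno-miR-1-3p had the same pattern and is no separate evidence, given how closely the counts of rno-miR-3571 followed those of both other members. Its ratio ran from 2.43 to 3.03 in young AL, with a median of 2.94, while old AL ran from 2.72 to 3.89 with a median of 3.23 and old CR from 2.49 to 2.96 with a median of 2.80. The log2 ratio differed by 0.23 between old AL and young AL (SE 0.0972, exact permutation p = 0.0476, adjusted p = 0.149) and by -0.24 between old CR and old AL (SE 0.0855, exact permutation p = 0.0173, adjusted p = 0.104). Without replicate 7 these were 0.28 (exact permutation adjusted p = 0.0130) and -0.30 (exact permutation adjusted p = 0.00866). Old CR and young AL differed by -0.01 (exact permutation p = 0.883). In medians the difference between old AL and young AL was 0.14 (exact permutation p = 0.0606, adjusted p = 0.242).

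**Figure D4:**
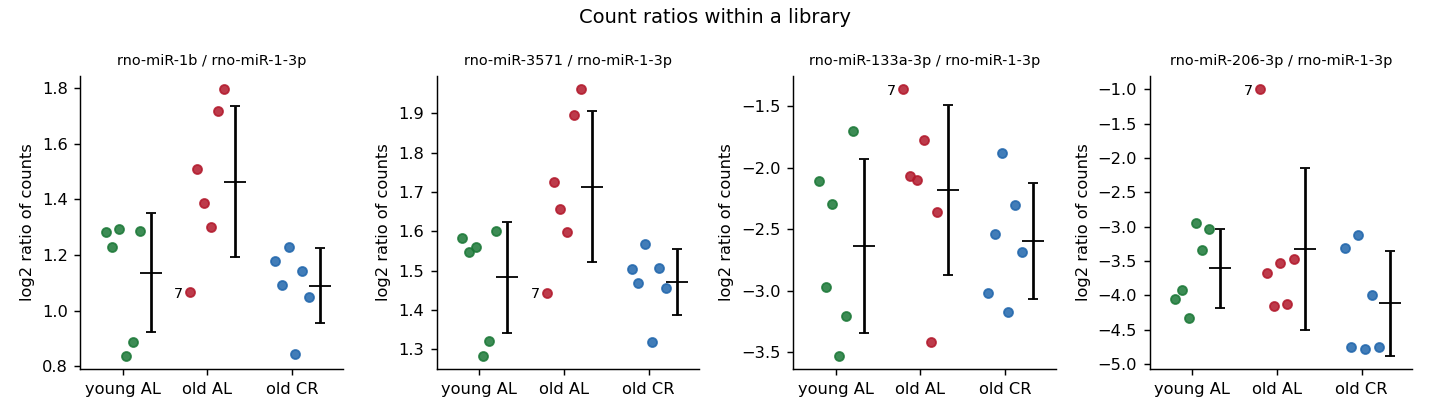
Log2 ratio of counts within each library, 1 point per library, with the mean and SD of each group of 6 in black and old AL replicate 7 marked. In the left panel old AL replicates 8 to 12 lie above all young AL and old CR points and replicate 7 lies among them. The panels for rno-miR-133a-3p and rno-miR-206-3p show groups that overlap, with replicate 7 at the top of both.

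The muscle miRNAs that are made with the family or share its seed did not separate the groups either. rno-miR-133a-3p, transcribed with miR-1, had 0.0866 to 0.307 counts for each count of rno-miR-1-3p in young AL, 0.0936 to 0.389 in old AL and 0.111 to 0.271 in old CR, with medians of 0.165, 0.236 and 0.164. The log2 ratio differed by 0.45 (SE 0.405, exact permutation p = 0.288) between old AL and young AL and by -0.42 (SE 0.343, exact permutation p = 0.247) between old CR and old AL. With 1 library left out these ran from 0.27 (without replicate 4) to 0.70 (without replicate 11) and from -0.66 (without replicate 11, exact permutation p = 0.0368, adjusted p = 0.147) to -0.25 (without replicate 7). rno-miR-206-3p, which has the miR-1 seed and is known to be induced by denervation and in regenerating fibres, had 0.0498 to 0.130 counts per count of rno-miR-1-3p in the young AL libraries, 0.0564 to 0.501 in those of old AL and 0.0364 to 0.115 in those of old CR. The value of 0.501 was that of replicate 7, and the next highest in old AL was 0.0899. Exact permutation p values for rno-miR-206-3p were 0.736, 0.223 and 0.190 in old AL against young AL, old CR against young AL and old CR against old AL.

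Old AL replicate 7 stood apart from the other old AL libraries in several of these miRNAs. It had 17986 CPM of rno-miR-206-3p, against 4321 to 8489 in the other old AL libraries. It also had 1109 CPM of rno-miR-499-5p, which is encoded in a slow myosin gene, against 116 to 388 in the others. Of rno-miR-208b-3p, encoded in the gene of the slow myosin heavy chain, it had 30.5 CPM against 1.75 to 6.06. Libraries of the other groups were high in these miRNAs too: young AL replicate 4 had 13765 CPM of rno-miR-206-3p, 689 of rno-miR-499-5p and 60.3 of rno-miR-208b-3p, and old CR replicate 13 had 15168, 499 and 16.1 CPM. The summed share of the other striated muscle miRNAs in old AL replicate 7 was 12.8%, the highest of all 18 libraries. Both rno-miR-133a-3p and rno-miR-133c, with nearly the same counts, are in this sum. Lists of miRNAs of other cell types were also summed. In replicate 7 fibroblast and smooth muscle miRNAs took 1.68% (0.492% to 1.54% in the other libraries) and endothelial miRNAs 1.09% (0.305% to 0.992%). All these are shares of the whole library. Replicate 7 had the lowest share on the miR-1 entries and the matching candidate (60.7%), which left more of its counts for every list. The lists were not compared over the remaining counts, so a high share does not set replicate 7 apart in them. The part of fibre type or of other cells in its values was not tested.

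Of 16 other miRNAs listed for striated muscle, 13 had enough counts to be tested in each comparison, and 0 were called by edgeR (or by DESeq2) in any of the 3. Their median log2 fold change was 0.12 (8 higher, 5 lower) in old AL against young AL, beside 0.06 over all entries. It was 0.03 (7 higher, 6 lower) in old CR against young AL, beside 0.08, and -0.13 (5 higher, 8 lower) in old CR against old AL, beside 0.01. With library totals there were 10 higher and 3 lower in old AL against young AL (median 0.22, beside 0.23 over all entries), 3 higher and 10 lower in old CR against young AL (-0.07, beside -0.05), and 0 higher and 13 lower in old CR against old AL (-0.75, beside -0.27), again with 0 called. Under TMM and without old AL replicate 7 the first and last of the TMM medians changed sign, to -0.07 and 0.02. The fit with library totals was not repeated without replicate 7, which had the highest summed share of these miRNAs (12.8%). rno-miR-133c had 98.6% to 99.2% of the counts of rno-miR-133a-3p in all libraries, so that these entries count once in substance. The striated muscle miRNA rno-miR-133a-3p (401373 to 1648106 counts) and the skeletal muscle miRNA rno-miR-206-3p (159780 to 1884275 counts) were present in every library. The heart miRNA rno-miR-208a-3p had at most 2 counts.

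Markers of the remaining cell types were summed as well. Erythroid miRNAs took at most 0.00161% of a library, leukocyte miRNAs 0.00816% to 0.0833%, nerve miRNAs 0.00122% to 0.0199% and liver miRNAs 7.48e-05% to 0.1001%. The liver list (3 miRNAs, all in the table) did not overlap between young AL (7.48e-05% to 0.00700%) and old AL (0.00714% to 0.1001%) or old CR (0.0113% to 0.0256%). The gap between young AL replicate 6 and old AL replicate 11 was narrow, and all other lists overlapped in both comparisons. Of single entries, the shares of 0.956% did not overlap in old AL against young AL and of 3.84% in old CR against young AL. The part of other cells in the members' values was not tested.

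The entries with profiles most like that of rno-miR-1-3p depended on the scaling. Over the 18 libraries and 96 entries with a mean of at least 100 CPM, the log2 CPM of rno-miR-3571 (Pearson r = 0.940), the matching candidate (0.877), rno-miR-1b (0.877), rno-miR-26a-5p (0.801) and rno-miR-3596d (0.754) were closest to it. rno-miR-133a-5p came 7 in this order (r = 0.726), while rno-miR-133a-3p came 53 (0.065) and rno-miR-206-3p came 71 (-0.107). With library totals the 5 closest of 97 entries were rno-miR-3571 (0.470), another predicted candidate (0.361), rno-miR-148a-3p (0.288), rno-miR-101a-3p (0.264) and rno-miR-24-2-5p (0.207), and rno-miR-1b came 45 (-0.159). All libraries enter each value, the groups are pooled and the TMM factor is shared by every entry of a library, so the r values are a description without a test.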

How the data were processed

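The authors extracted total RNA with the RNeasy Plus Universal Mini Kit, prepared libraries with the NEBNext small RNA kit, sequenced them on an Illumina HiSeq, trimmed reads with Cutadapt 1.2.1 and Sickle, identified miRNAs with miRDeep2, counted with featureCount and deposited whole-number counts per miRNA and library, not normalised. The submitters' processing notes also name Bowtie2 2.4.0 and the build Rnor_6.0. Printed coordinates are RefSeq's on GRCr8, another build. Every column was used.

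Counts were compared pairwise with edgeR 4.0.16 in R 4.3.3 (TMM, quasi-likelihood, robust), on the 12 libraries of a pair and entries with at least 10 counts in them, adjusted by Benjamini-Hochberg. The standard error is the log2 fold change over the root of the F statistic. Shares and log2 ratios were compared by two-sided exact permutation over 924 arrangements, adjusted over all entries or over 12 ratio tests. DESeq2 1.42.0, the tool of the methods, was an alternative. Likeness used log2(CPM + 0.5). Intervals and floors cover counting error or the spread between libraries as named, since reads carry no molecular identifiers. The scripts were tested on simulated data. The members and lists were chosen with earlier results of these data known. The text names the members, predicted candidates within 10% or 2 counts of a member, the striated muscle list, the 5 entries most like rno-miR-1-3p under each scaling and RefSeq miRNAs with its seed. Of the striated list, the other members are given by counts and medians.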

Additional observations from a re-analysis of the deposited data

Results flagged for a closer look

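Of 60 group values of the members and related miRNAs that were examined with Dixon's test, 6 had a single library far from the others of its group. Chance alone gives about 5% for independent values. These values share libraries and miRNAs and are not independent, so the count cannot be judged against that rate. The level of rno-miR-1-3p in young AL replicate 6 was 62805 CPM, below the next lowest of 91106 CPM. In old AL replicate 7 the log2 ratio of rno-miR-206-3p to rno-miR-1-3p was -0.998, with the next at -3.48, and rno-miR-206-3p itself was at 17986 CPM, with the next at 8489 CPM. rno-miR-499-5p had 1 high library in each group, at 689 CPM in young AL replicate 4, 1109 CPM in old AL replicate 7 and 499 CPM in old CR replicate 13, against next values of 255, 388 and 195 CPM. These libraries were kept in all comparisons.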

How the results depend on the processing

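No member was called under any scaling, filter, tool or left-out library, and none of the members' share tests passed. With library totals the log2 fold change of rno-miR-3571 in old AL against young AL was -0.0464. That of rno-miR-1b in old CR against old AL was -0.13 with upper-quartile factors, -0.0529 with library totals, -0.0113 when scaled to entries outside the family, -0.0264 with filterByExpr and -0.0252 with shared entries counted once. The share of rno-miR-1b in old CR against young AL differed by -0.0200 percentage points over known miRNAs and by -0.331 in medians. Young AL replicates 1 and 2 have column headers that, unlike all the others, do not begin with the replicate number, and what that number means is not stated. Without both, the log2 ratios of rno-miR-1b and rno-miR-3571 to rno-miR-1-3p in old CR against young AL were 0.0134 and 0.0287. The cause was not tested.

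With 1 library left out at a time, in old AL against young AL the log2 fold change of rno-miR-1b ran from -0.0262 to 0.36 and that of rno-miR-3571 from -0.13 to 0.23, the share of rno-miR-3571 from -1.42 to 0.116 percentage points, and the log2 ratios to rno-miR-1-3p from 0.26 to 0.41 (rno-miR-1b), 0.18 to 0.28 (rno-miR-3571) and -0.18 to 0.45 (rno-miR-206-3p). In old CR against young AL the share of rno-miR-1b ran from -0.271 to 0.385 percentage points and the log2 ratios from -0.11 to 0.00251 (rno-miR-1b), -0.0523 to 0.0179 (rno-miR-3571) and -0.14 to 0.22 (rno-miR-133a-3p). In old CR against old AL the log2 fold changes ran from -0.17 to 0.22 (rno-miR-1b) and -0.00611 to 0.36 (rno-miR-3571), and the log2 ratios from -0.45 to -0.31 (rno-miR-1b) and -0.30 to -0.19 (rno-miR-3571). The ratios of rno-miR-1b and rno-miR-3571 passed the threshold only without old AL replicate 7.

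Counts of calls over all entries moved by more than 1.5 times from 24 in old AL against young AL (84 by DESeq2, 0 with library totals, 37 with filterByExpr, 38 in a single fit, 53 over known miRNAs, 6 with shared entries counted once), from 68 in old CR against young AL (109 by DESeq2) and from 2 in old CR against old AL (19 by DESeq2, 0 with upper-quartile factors, library totals, known miRNAs, shared entries counted once or no robust estimation, where 60 to 90 entries had an unadjusted p under 0.05). Without 1 library, the 24 calls became 9 to 20 (15 or fewer without replicates 2, 3, 4, 5, 9, 11 or 12), the 68 became 45 to 67 (45 without replicate 18) and the 2 became 0 to 3 (0 without replicates 7, 8, 10, 11, 12, 14, 16, 17 or 18).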
